A study of Homo sapiens with 4 samples.

Results

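AP-1 is a family of dimeric transcription factors built from basic leucine zipper (bZIP) proteins, and the genes of 10 such proteins are described here by the PML peaks that lie nearest to them in MDA-MB-231 cells. They are the FOS-type genes FOS, FOSB, FOSL1 and FOSL2, the JUN-type genes JUN, JUNB and JUND, and the further bZIP genes ATF3, BATF3 and MAFF. A peak belonged to a gene when the deposited table named that gene as the nearest one. By this rule, 26 of the 68937 peaks belonged to the 10 genes, which were all among the 13948 protein-coding genes named in the table. The genes were chosen by name, with earlier peak scores of the same list known, so all counts, scores and widths are given as descriptions with no test.

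MDA-MB-231, a cell line derived from a human triple-negative breast cancer, was grown in medium with 10% serum and no further treatment given in the labels. The labels name 2 libraries from chromatin precipitated with an antibody to PML, the scaffold protein of PML nuclear bodies, and 2 input libraries. The authors merged the duplicates and called 1 list of peaks, so no value has a replicate error, and read depth is unknown. The table holds no expression, so neither the identity of the line nor the activity of any gene could be read from it.

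FOS-type proteins cannot pair with themselves and bind DNA as heterodimers with a JUN-type protein, whereas JUN-type proteins also pair with one another. The dimers bind a short palindrome, TGAGTCA, and the related cAMP response element, TGACGTCA. FOS, FOSB, JUN and JUNB are immediate early genes, which growth factors and serum switch on through kinases and transcription factors already present in the cell. FOSL1 encodes FRA-1, a subunit linked to the mesenchymal state of breast cancer cells. ATF3 is a stress-induced partner of JUN proteins, BATF3 a partner best known from dendritic cells, and MAFF a small MAF protein that lacks an activation domain.

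PML peaks covered a start site named by the table at 9 of the 10 genes (an internal one at ATF3), and the JUN-type peaks were the widest. A promoter peak here is one centred within 1000 bp of a TSS by the table's own distance. Such a peak was present at 78.6% of the protein-coding genes that the table names, and at 54.4% of all RefSeq protein-coding genes. FOSB was the exception. All 9 promoter peaks scored at or above 63, which is the median score over the 10958 protein-coding genes with such a peak (each by its highest), a level that 50.1% of those genes reached by construction. The peak scores are the authors' own whole numbers, on a scale that no label or header names. They serve only to rank peaks within this list, where the lowest is 13 and the median 34.

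**Figure D1:**
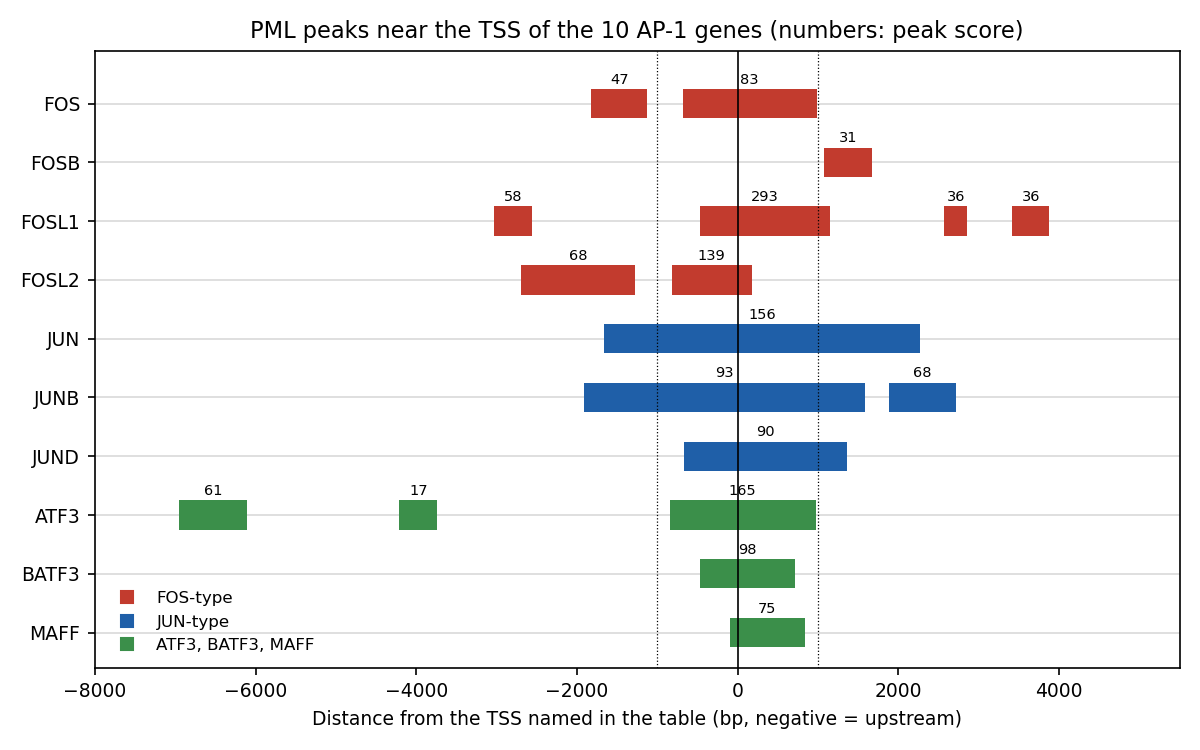
Peaks within 10000 bp of the TSS for each of the 10 genes. The x axis is the distance in bp from the TSS that the table names for that peak (negative upstream), each bar spans the width of 1 peak, the number above it is its score, and dotted lines mark 1000 bp. The peaks at JUN and JUNB are 3936 and 3493 bp wide, and FOSB has a single peak of score 31, centred 1370 bp after its TSS.

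The reference sequence before the start sites is shown for the FOS-type and JUN-type genes except FOSL1, for which the reference used held no promoter sequence. Each line below gives the 250 bases before the RefSeq gene start, 5′ to 3′ (RefSeq, GRCh38.p14). They lie at chr14:75278578-75278827 for FOS (plus strand), chr19:45467746-45467995 for FOSB (plus strand), chr2:28392608-28392857 for FOSL2 (plus strand), chr1:58784048-58784297 for JUN (minus strand), chr19:12791236-12791485 for JUNB (plus strand) and chr19:18281623-18281872 for JUND (minus strand). Capitals mark exact matches on either strand. The letters searched were GGGCGG, the box bound by Sp1, and CCAAT, the box bound by NF-Y. TATAAA is the TATA box and TGACGTCA the cAMP response element. TGACATCA, a variant of that palindrome, was added after the sequences had been seen. PML peaks covered all 250 bases at FOS, FOSL2, JUN, JUNB and JUND, and none at FOSB.
FOS: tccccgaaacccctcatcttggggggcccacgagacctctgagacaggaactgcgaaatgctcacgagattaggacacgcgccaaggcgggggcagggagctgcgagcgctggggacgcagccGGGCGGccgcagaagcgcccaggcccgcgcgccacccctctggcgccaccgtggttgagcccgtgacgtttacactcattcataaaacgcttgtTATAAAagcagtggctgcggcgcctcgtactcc
FOSB: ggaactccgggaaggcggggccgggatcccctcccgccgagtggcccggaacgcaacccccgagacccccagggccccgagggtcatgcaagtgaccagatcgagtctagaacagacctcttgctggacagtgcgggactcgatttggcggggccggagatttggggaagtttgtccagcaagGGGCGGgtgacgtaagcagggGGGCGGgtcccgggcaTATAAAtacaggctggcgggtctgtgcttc
FOSL2: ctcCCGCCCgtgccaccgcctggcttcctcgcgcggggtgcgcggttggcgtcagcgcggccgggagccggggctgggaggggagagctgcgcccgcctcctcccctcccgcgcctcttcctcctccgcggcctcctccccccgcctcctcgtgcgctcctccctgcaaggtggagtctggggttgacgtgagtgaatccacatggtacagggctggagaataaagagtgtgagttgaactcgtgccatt
JUN: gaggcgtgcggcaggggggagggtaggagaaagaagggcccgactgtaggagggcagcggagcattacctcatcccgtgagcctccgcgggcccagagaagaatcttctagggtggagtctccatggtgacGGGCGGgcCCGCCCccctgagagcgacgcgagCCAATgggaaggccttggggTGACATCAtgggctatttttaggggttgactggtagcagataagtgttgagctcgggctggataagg
JUNB: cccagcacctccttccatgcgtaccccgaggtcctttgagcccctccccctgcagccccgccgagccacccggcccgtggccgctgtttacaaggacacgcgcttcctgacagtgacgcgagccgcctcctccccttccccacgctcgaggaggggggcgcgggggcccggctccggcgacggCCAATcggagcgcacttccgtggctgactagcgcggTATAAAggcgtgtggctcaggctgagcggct
JUND: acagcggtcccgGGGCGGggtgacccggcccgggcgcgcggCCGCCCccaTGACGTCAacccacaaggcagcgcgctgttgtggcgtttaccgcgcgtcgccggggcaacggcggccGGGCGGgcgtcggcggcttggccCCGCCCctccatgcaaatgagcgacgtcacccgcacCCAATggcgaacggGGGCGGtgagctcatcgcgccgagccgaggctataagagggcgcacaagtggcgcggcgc

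Motif matches were counted in the full RefSeq windows, which run from 250 bases before to 50 after a gene start, for 35116 windows of all genes. The members had 10 windows from 8 genes, with 2 each for ATF3 and MAFF. PML peaks covered none of the 250 bases before either ATF3 start, and 99 and 64 of those before the MAFF starts. The promoter peak of ATF3 lies at another start site, which has no window. CCAAT was found in the windows of all 3 JUN-type genes, 87 bases before the start at JUN, 67 at JUNB and 74 at JUND. It was also found in 1 window each of ATF3 and MAFF, in none of the 3 FOS-type windows, and in 34.6% of all windows. The shorter TGACGT, contained in the cAMP response element and also added after the sequences had been seen, lay 64 bases before the start at FOS, 60 at FOSB and 66 at FOSL2. JUND held it at 200 bases as part of a full TGACGTCA, and again on the other strand at 87 bases. MAFF held it within its full element, JUN and JUNB lacked it, and 7.98% of all windows had a match.

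TATAAA lay 33 bases before the start at FOS, 30 at FOSB and 31 at JUNB, and 230 bases before 1 start of ATF3, against 11.5% of all windows with a match anywhere. The full TGACGTCA was present at JUND and MAFF, against 1.85% of all windows, and TGACATCA at JUN, 67 bases before the start, and in 1 window of ATF3, against 2.61%. GGGCGG was present in 8 of the members' 10 windows (7 of the 8 genes, all but JUNB) and in 45.0% of all windows. The ETS letters CCGGAAG (10.3% of all windows) and the CArG box bound by SRF (1.29%) were in none of the members' windows, which says nothing of sites farther away. The windows of the FOS-type and JUN-type genes were all rich in G and C, from 62.0% at JUN to 77.0% at JUND, with 64.0% at FOSB and a median of 58.7% over all windows.

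The FOSL2 start site carried a pair of overlapping matches. The letters ACTACAA, a core of the sequence bound by RONIN and ZNF143, were found on the opposite strand (as TTGTAGT) from 2 bases before the start, and TGACTCA, the AP-1 palindrome read on the other strand, began at base 5 after it. The 30 bases at chr2:28392848-28392877 on the plus strand, 10 before the start and 20 from it on, show both in capitals, joined at a shared T.
FOSL2 start: tcgtgccaTTGTAGTGACTCAtctcgggca

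Windows with ACTACAA made up 2.77% of all, those with TGAGTCA 4.95%, and those with both 0.0854% (30 windows). The FOSL2 window was the 1 window of 35116 in which the pair overlapped. This pairing was looked for after the sequence had been seen, and a match is not evidence that either factor binds there. The PML peak of score 139 covered these bases.

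FOS, whose product pairs with JUN in the classical AP-1 dimer, had 3 peaks. Its promoter peak, annotated to the 5′ UTR in exon 1, spanned 75278144 to 75279809 of chromosome 14, scored 83 and was 1666 bp wide. Another of score 47 and 690 bp was centred 1475 bp upstream in a CpG island, and a distal one of score 26 and 395 bp lay 23796 bp upstream. The upstream CpG island peak and the promoter peak were thus separate calls.

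FOSB had 1 peak, on chromosome 19 from 45469066 to 45469667, in the first intron 1370 bp after the TSS, in a CpG island. Its score of 31 was reached or passed by 61.0% of all peaks, and its width was 602 bp. Of the 10 genes, FOSB thus had the lowest-scoring best peak and the farthest from its start site.

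FOSL1 had the highest score of the 10 genes. Its promoter peak ran on chromosome 11 from 65899243 to 65900851, in a CpG island in the first intron 341 bp after the TSS, with a score of 293 and a width of 1609 bp. Only 1.33% of genes with a promoter peak scored as high, and the peak ranked 242 in the whole list. FOSL1 also had a peak of score 58 and 475 bp centred 2798 bp upstream. Further peaks of score 36 lay 2711 and 3646 bp downstream, over an old MIR and an L2b repeat copy, 277 and 466 bp wide. All 4 of its peaks lay within 10000 bp.

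The FOSL1 locus was also dense in peaks: 208 were centred within 500 kb of the gene, a count reached by 2.14% of protein-coding genes, against 29 to 73 around the other 9 genes. The part of this density in the FOSL1 score was not tested. Among the 35 other genes with a promoter peak within 500 kb the median score was 126 and the highest 215, so none reached 293. This leaves out peaks beyond promoters, such as one of score 368 over the 3′ end of FOSL1, centred 1620 bp after the TSS of CCDC85B.

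FOSL2, which encodes FRA-2, had a promoter peak on chromosome 2 from 28392035 to 28393031, centred 325 bp upstream, with a score of 139 and a width of 997 bp. This was the narrowest promoter peak among the FOS-type and JUN-type genes. A CpG island peak of score 68 and 1418 bp lay 1988 bp upstream, wider than the promoter peak itself. Distal peaks of score 31 (564 bp) and 17 (307 bp) lay 36465 and 37348 bp upstream, close to one another.

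JUN, the best-known partner of FOS, had a promoter peak on chromosome 1 from 58781779 to 58785714, with a score of 156 and a width of 3936 bp. It reached from 1667 bp before the TSS to 2268 bp after it, covering 69.7% of this gene of 1 exon. A distal peak of score 42 and 462 bp lay 28478 bp after the TSS, beyond the gene's end. Of genes with a promoter peak, 11.7% scored as high as JUN but only 0.319% had so wide a peak, and in the whole list its width ranked 120.

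JUNB had a promoter peak on chromosome 19 from 12789579 to 12793071, with a score of 93 and a width of 3493 bp, which ranked 180 by width. It covered 86.7% of the gene and reached 1907 bp upstream. A second peak of score 68 and 839 bp lay just past the gene's end, 2302 bp after the TSS. The call at JUNB was thus nearly as broad as that at JUN at a lower score.

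JUND, the JUN-type gene known for steady expression rather than induction, had 1 peak, on chromosome 19 from 18280258 to 18282292, with a score of 90 and a width of 2035 bp. It covered 70.8% of the gene, and the annotation column named it for the promoter of the microRNA gene MIR3188 next to JUND. No other peak was given to JUND.

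ATF3, BATF3 and MAFF had promoter peaks narrower than those of the JUN-type genes. ATF3 had a promoter peak of score 165 and 1824 bp on chromosome 1 from 212607913 to 212609736. It lay at an internal start site, 43354 bp after the RefSeq gene start, where no peak was centred within 1000 bp. A CpG island peak of score 61 and 847 bp lay 6525 bp before the first start site. The other 2, in the first intron, had scores of 17 and 42, 477 and 460 bp wide, at 3975 bp before and 19949 bp after their nearest start sites.

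BATF3 lies on chromosome 1 beyond ATF3, with the protein-coding gene GARIN4 between them. Its promoter peak ran from 212699133 to 212700314, over exon 1, with a score of 98 and a width of 1182 bp. Its distal peaks had scores of 31 and 14 upstream, at 24695 and 26889 bp, and 55 downstream, at 34378 bp. The first of these lay in an SVA_B retroposon and the second in the 3′ UTR of a neighbouring gene. MAFF had 1 peak, on chromosome 22 from 38201895 to 38202833, with a score of 75 and a width of 939 bp, the lowest score and the narrowest promoter peak of the 9.

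The FOS-type and JUN-type genes did not separate by score. The FOS-type promoter scores were 83, 293 and 139, and the JUN-type scores 156, 93 and 90, so the groups overlapped. The medians were 139 and 93, a difference of 46 that fell to 18 without FOSL1, to 16 without JUNB and to 14.5 without JUND, and rose to 123 without FOS and 95 without FOSL2. With a promoter window of 5000 bp, where FOSB enters with its peak of 31, the difference was 18.

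By width of the promoter peaks as called, the groups did not overlap. The JUN-type promoter peaks were 3936, 3493 and 2035 bp wide, and the FOS-type peaks 1666, 1609 and 997 bp. ATF3, BATF3 and MAFF, at 1824, 1182 and 939 bp, also lay below the narrowest JUN-type peak. With 3 genes against 3 and no replicates this is a description of 6 peaks. Separate calls lay close upstream at FOS (ending at 75277698, before the promoter call from 75278144) and at FOSL2 (28391579, before 28392035). At JUNB a second call began at 12793369, past the promoter call's end at 12793071. Counting such neighbouring calls as 1 peak would change the widths, and whether the groups would then still separate was not tested. Among the bZIP genes of the related lists given further on, MAFA (2675 bp), CEBPA (2417 bp) and BACH2 (2292 bp) had promoter peaks wider than that of JUND. None of those lists held a peak as wide as that of JUNB. All 9 promoter peaks were wider than 798 bp, the median over all genes with a promoter peak, which 50.0% of those genes exceeded.

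Wider peaks tend to score higher in this list, so each width was also set beside genes whose highest promoter score lay within 10% of the member's. The JUN peak was 3.25 times as wide as the median of 629 such genes (1210 bp), and 0.795% of them had so wide a peak. The JUNB peak was 3.38 times the median of 975 genes (1032 bp, 0.513% as wide), and the JUND peak 2.06 times that of 1224 genes (988 bp, 6.29% as wide). For the FOS-type genes the ratios were 1.79 at FOS (11.5% as wide), 1.19 at FOSL1 (38.5%) and 0.837 at FOSL2 (66.5%). ATF3 stood at 1.43 (20.7%), BATF3 at 1.15 (37.6%) and MAFF at 1.09 (43.4%). JUN and JUNB thus stood farthest from genes of like score, and JUND lay nearer to FOS than to them.

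**Figure D2:**
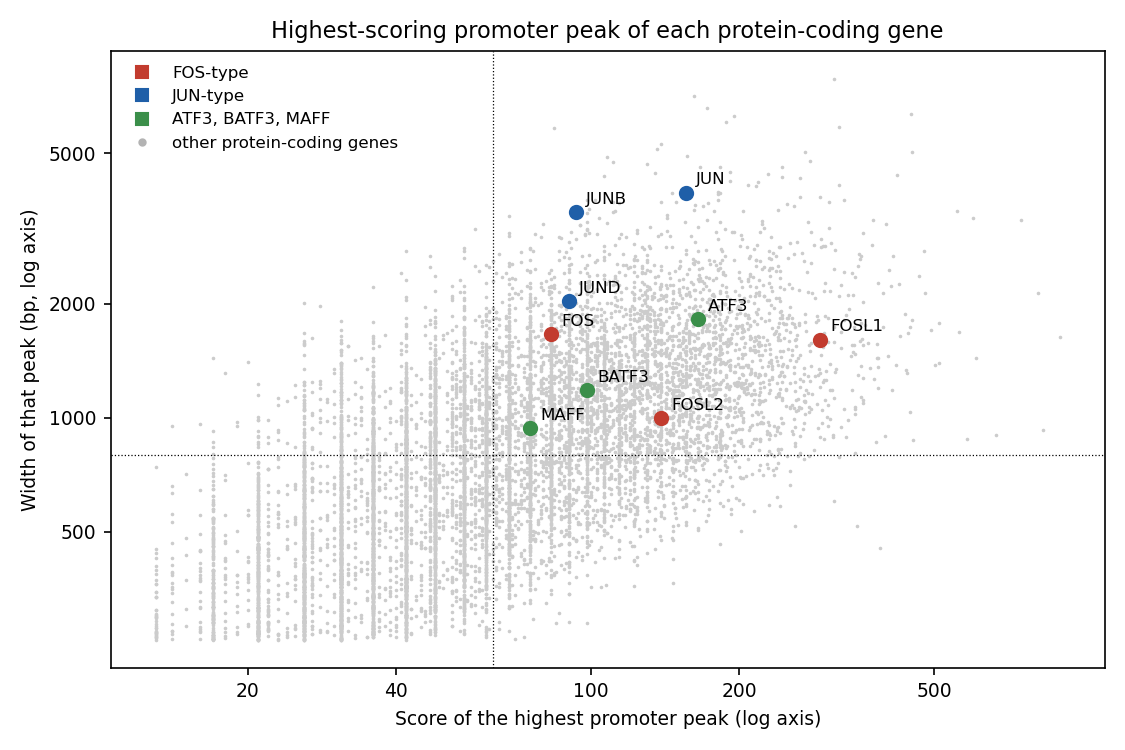
Score (x, log axis) and width in bp (y, log axis) of the highest-scoring promoter peak of each protein-coding gene. Each grey point is 1 gene, coloured points are the members, and dotted lines mark the medians of 63 and 798 bp. JUN and JUNB lie near the upper edge of the cloud, FOSL1 far to the right at 293, and FOSL2 and MAFF inside it.

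The 3 JUN-type genes are also short and have no introns, 3257, 1830 and 1929 bp from end to end, so a wide peak covers most of the gene. FOS, at 3403 bp, is of similar length, and its peak covered 28.9% of it. Among 807 genes of up to 4000 bp with a promoter peak, the median share covered was 24.3%. A share as high as that of JUN was found in 8.67% of them, as high as JUNB in 4.46% and as high as JUND in 7.93%, against 41.8% for FOS. A peak as wide as that of JUN was found in 0.743% of these short genes, as wide as JUNB in 0.991%, as wide as JUND in 8.43% and as wide as FOS in 14.6%. Whether several neighbouring calls were joined into the wide peaks was not tested.

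CpG islands were named for 5 of the 26 peaks (19.2%, against 6.67% of all peaks). Each of the 4 FOS-type genes had one, and no JUN-type gene did. The annotation decides this in part: of the 4598 peaks with a CpG island named, 3052 were intronic and 1546 intergenic, and none was of the promoter, 5′ UTR, exon or gene end class. All JUN-type peaks near a start site or gene end were of those classes, so an island under them would not be named. Repeats were named for 4 of the 26 peaks, with no share over all peaks to set beside this count.

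Outside the promoters, no peak scored above 68. Of the 26 peaks, 9 were promoter peaks, 9 lay 1000 to 10000 bp from a TSS (5 upstream and 4 downstream) and 8 were distal, over 10000 bp away (5 upstream and 3 downstream). Distal peaks made up 30.8% of the members' peaks, against 58.1% of all peaks and 52.8% of those given to protein-coding genes. The share was 78.8% when all peaks lying between the neighbouring protein-coding genes were counted, with distances taken from the member's RefSeq gene start. By that measure even the ATF3 promoter peak, 43354 bp after the gene start, counts as distal. The 58.1% uses the nearest TSS of each peak, so it cannot be set beside the 78.8%. The distal scores had a median of 31, as over all distal peaks, and a median width of 385.5 bp against 392 bp. The peaks at 1000 to 10000 bp had a median score of 47, against 32 over all peaks at that distance.

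Distal peaks belonged to 5 of the 10 genes (FOS, FOSL2, JUN, ATF3 and BATF3), and 47.0% of all protein-coding genes named in the table had one. FOSL1, FOSB, JUNB, JUND and MAFF had none. The room for such peaks differed: the neighbouring protein-coding genes lay 25.2 kb apart around FOSL1, 33.7 around FOSB and 31.8 around JUND. At JUNB the room was 5.34 kb and at MAFF 34.7 kb, both with a gene that overlaps the member on 1 side (HOOK2 over the start of JUNB, TMEM184B over the end of MAFF). The gap was 157 kb at FOSL2, 596 at JUN, 178 at ATF3 and 99.4 at BATF3, and that at FOS lay between those of ATF3 and JUN. In the narrow gaps, few distal peaks and nearest-gene assignment cannot be told apart. The members had a median of 2.5 peaks, against 2 over all protein-coding genes.

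**Figure D3:**
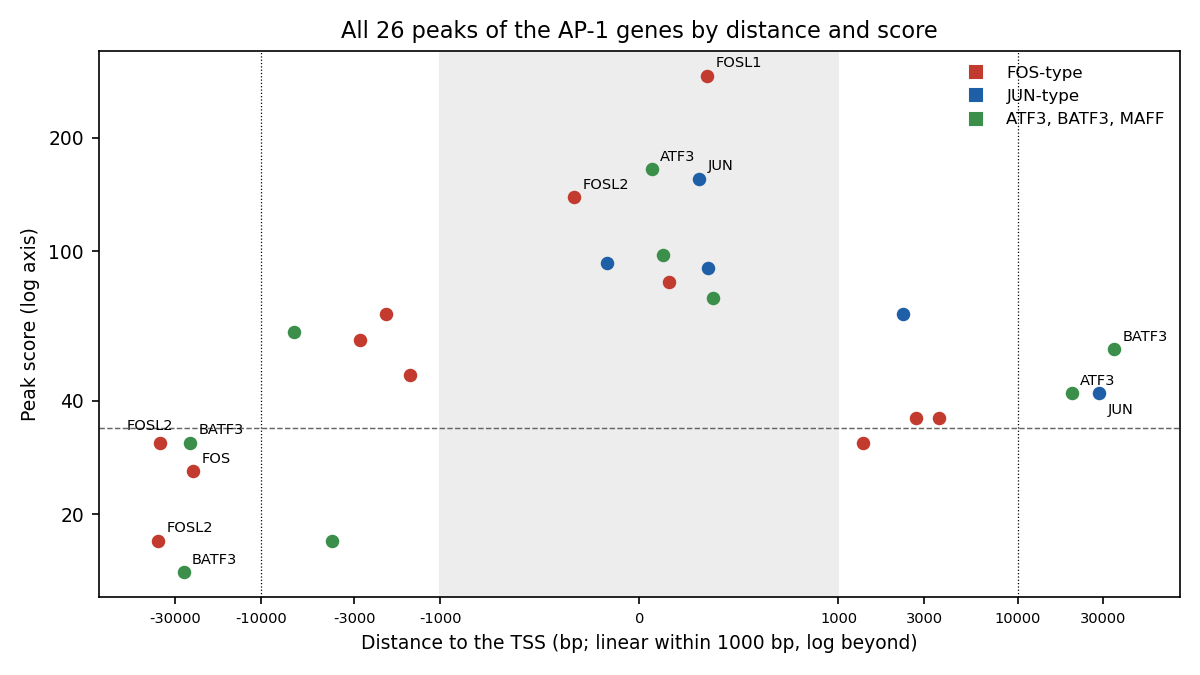
All 26 peaks of the 10 genes by signed distance to the TSS in bp (x, linear within 1000 bp and log beyond) and score (y, log axis). Points are peaks, the grey band is the promoter window, dotted lines mark 10000 bp and the dashed line the median score of all peaks, 34. All 9 peaks in the band score 75 or more, and the highest distal score is 55, at BATF3.

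Genes related to AP-1 were taken as 5 lists of relatives, regulators and targets. From 80.0% to 94.4% of the named genes in each list had a promoter peak, against 78.6% of all protein-coding genes named in the table. Of 12 other AP-1 and MAF genes, 10 were named in the table and 8 had a promoter peak, led by MAFA (354), MAFK (152) and ATF2 (106), a JUN partner. CREB5 and NRL had none. JDP2, a repressor of JUN dimers and the neighbour of FOS, had a score of 83 and a width of 1981 bp. The median score of these 8 was 83, and their median width 1250.5 bp, below the members' 98 and 1666 bp. Of 31 other bZIP genes, 23 of 25 named had a promoter peak, with a median score of 75, led by CREB3 (221), CEBPB (183) and CEBPD (163). HLF and CREB3L3 had none.

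Among kinases and transcription factors that act on AP-1, 17 of 18 named genes had a promoter peak, with a median score of 61. MAPK9, which encodes the JUN kinase JNK2, stood out at 435, followed by ELK1 (120), an SRF partner at immediate early promoters, and MAPK8 (107), which encodes JNK1. ELK4 had none. Of 23 other immediate early genes, which share SRF with the list before, 20 had a promoter peak, with a median score of 85.5 and a median width of 1135.5 bp. DUSP1, a phosphatase of these kinases, had 353 (2625 bp), ARC 192 and KLF4 183. EGR3, IER2 and NR4A2 had none.

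Known AP-1 targets were named in the table less completely than the other lists, with 14 of 24 genes. The table names 13948 protein-coding genes and RefSeq holds 20056, so being the nearest gene of no peak is not particular to these targets. Of these, 12 had a promoter peak, with a median score of 79.5. PLAU, the urokinase gene, had 199 and SPHK1, a sphingosine kinase, 98. MMP9, a matrix metalloproteinase gene, had no promoter peak, and 10 further targets, among them MMP1, MMP3, MMP10 and MMP13, were the nearest gene of no peak. None of the 5 lists had a higher median score or a wider median peak than the 10 AP-1 genes, which had been chosen with earlier scores known.

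**Figure D4:**
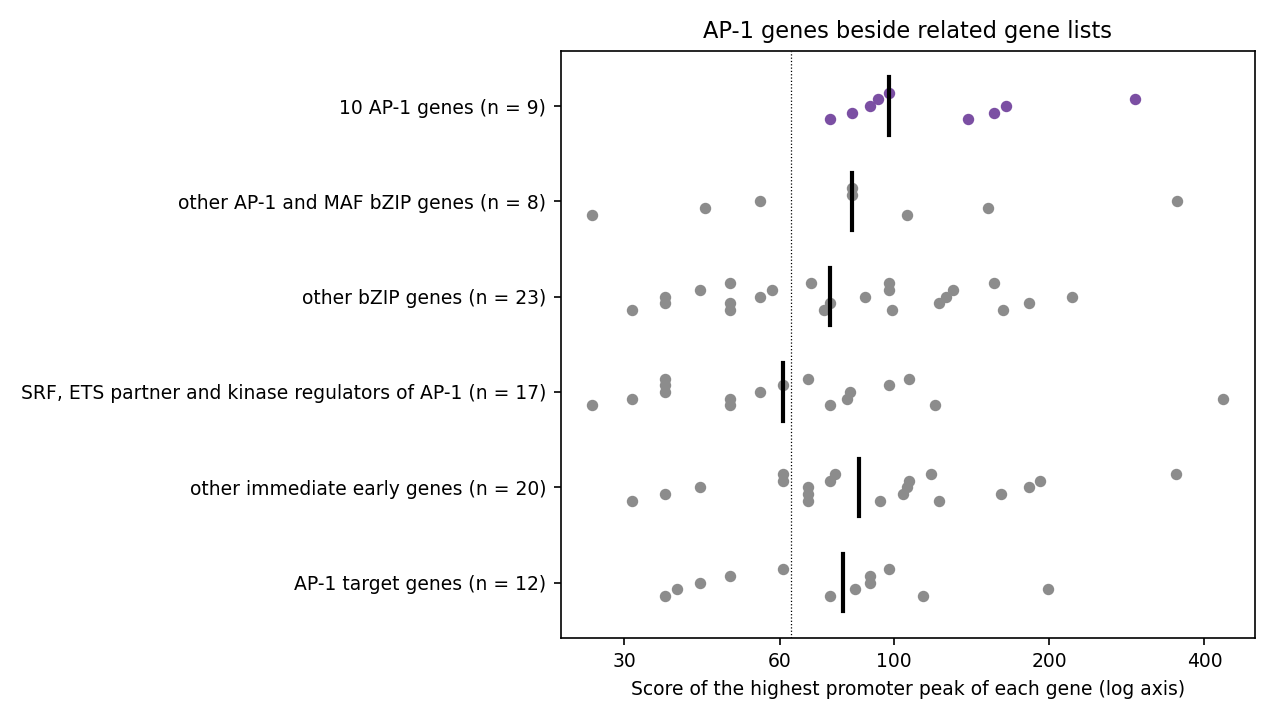
Score of the highest promoter peak (x, log axis) of each gene with one, for the 10 AP-1 genes and 5 related lists (y). Points are genes, black bars the medians and the dotted line the median of 63 over all protein-coding genes with a promoter peak. The AP-1 genes run from 75 to 293, while each other list has members below 63.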

How the data were processed

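The deposited data are 1 peak table made from 2 PML ChIP and 2 input libraries of MDA-MB-231 cells, whose duplicates were merged with input as the reference for calling, per the series' design text. The build was hg38, and the tools were HOMER 4.11.1, BWA 0.7.12, MACS2 2.1.1.20160309, Picard 2.0.1 and Trimmomatic 0.36, per the submitters' processing notes, which give no roles. Settings, peak threshold and scale of the score are not given in the sources used here. Each deposited score is a whole number. Positions, distances, annotation classes and nearest genes are as deposited, per the file headers. Widths count both end positions. Whether starts count from 0 or 1 is not stated, so widths may be 1 bp too long.

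The members and lists were chosen with earlier results of these data known. The text names all 10 members with their peaks, the 3 highest of each list and, where at most 5 lack a promoter peak, those, except 2 target genes that are not reported here. JDP2, CEBPA and BACH2 were named after their values were seen. Peaks were classed by distance to the TSS (1000 and 10000 bp). Gene spans, neighbours and promoter windows came from RefSeq (GRCh38.p14), where strand for FOSL1 and BATF3, which have no window there, followed the TSS the table implies. A planned comparison of protein sequences was not run. Depth is unknown, and no value has an error or a test. Scripts in Python 3.11.15 with numpy 2.4.6 and pandas 2.3.3 were tested on simulated data. Alternatives covered the promoter window, the distal limit, the peaks kept, the assignment and each gene left out.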

Additional observations from a re-analysis of the deposited data

How the results depend on the processing

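The number of the 10 genes with a promoter peak was 9 in the main count and with a 500 bp window or the peaks at or above the median score, 10 with a 5000 bp window, 8 for any peak within 1000 bp of the RefSeq gene start, and 5 with the 5000 highest-scoring peaks. The median highest promoter score, 98, was 95.5 with a 5000 bp window, 95.5 by the RefSeq gene start and 156 with the 5000 highest-scoring peaks, which keep only scores of 96 or more. The FOS-type minus JUN-type median score, 46, was 18 with a 5000 bp window and 60 with the 5000 highest-scoring peaks. It ran from 14.5 to 123 with each gene left out in turn. Taken on width it was -1884 bp, with medians of 1609 and 3493 bp, so its direction depends on the measure. The 26 assigned peaks became 5 with the 5000 highest-scoring peaks and 85 when every peak between the neighbouring RefSeq protein-coding genes was counted (96 with overlapping genes ignored, an alternative chosen after seeing the data). The 8 distal peaks became 3 at or above the median score, 0 with the 5000 highest-scoring peaks, 67 between neighbouring genes (74 with overlapping genes ignored) and 0 with a distal limit of 50000 bp. The distal share of 30.8% became 0% with the 5000 highest-scoring peaks and 0% with the limit of 50000 bp. Between neighbouring genes it was 78.8% (77.1% with overlapping genes ignored). There the distances ran from the member's RefSeq gene start, so these shares cannot be set beside the 58.1% of all peaks. No paired analysis was possible because the table keeps no library apart.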

Other observations

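Several peaks over or beside the AP-1 genes are given to other genes by the table. The widest of these is at the 3′ end of FOSL1, where a peak on chromosome 11 from 65890109 to 65894477 has a score of 368 and a width of 4369 bp, both above those of the FOSL1 promoter peak. It is named for CCDC85B, the gene next to FOSL1. Within FOSL2, peaks of score 17 and 31 are named for the noncoding gene FLJ31356, the second over exon 4 of FOSL2. Between ERCC1 and FOSB lies a peak of score 106 and 815 bp, named for ERCC1 and 4626 bp upstream of it, which is the only peak besides the one in FOSB between its neighbouring genes.

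The long gap around JUN, 596 kb, holds 29 peaks, of which the table gives 2 to JUN. Those of highest score among the others, 98 and 96, lie in CpG islands and are named for the noncoding genes LINC01135 and LINC01358. Around FOS, LINC01220 has a promoter peak of score 60. The table cannot say which gene any of these peaks acts on.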
